A study of Homo sapiens with 6 samples.

Results

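Metallothioneins are small cytoplasmic proteins rich in cysteine, and 8 of their genes were followed here in MDA-MB231 cells with and without a Ror1 knockdown. The genes were MT2A, MT1E, MT1X, MT1F, MT1G, MT1A, MT1M and MT1L. They were picked by symbol, 8 of the 57445 genes of the expression table, a rule that uses no measured value, although the family was taken up with earlier results of these data known. All 8 lie within the metallothionein cluster on the long arm of chromosome 16. The MDA-MB231 line was established from a triple-negative breast cancer and is of mesenchymal type. Both groups received a lentiviral pGIPZ vector and were selected with puromycin for stable expression, so control and knockdown cells share transduction and drug selection. The shCTL group (3 libraries) carried a non-silencing control hairpin, although its sample labels name an empty vector, and its column headers carry the word DMSO, which those of the other group lack. Whether a solvent was added to 1 group only is not given in the sources used here. The shRor1 group (3 libraries) carried a hairpin against ROR1, a cell surface receptor of the Wnt5a pathway. A single hairpin in a single cell line was used, and the labels do not say whether the 3 libraries of a group came from separate cultures. The p-values below therefore measure only the spread between these libraries, which may be technical.

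Metallothioneins bind zinc and copper under normal conditions and cadmium when cells meet it, holding the ions in clusters of cysteine sulphur. They buffer free zinc, hand zinc on to other proteins and take up reactive oxygen. Their genes are switched on by the zinc sensor MTF1 through short metal response elements in their promoters, and MT2A also responds to glucocorticoid hormones. MT2A and the MT1 genes are the forms expressed widely in tissues, whereas MT3 is best known from brain and MT4 from stratified epithelium. In breast cancer, metallothionein expression has long been studied in connection with proliferation and tumour grade.

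The coding sequences of the 4 members with appreciable expression are shown first, because their likeness sets how well short reads can separate the genes. Each ran over 186 bases including the stop codon, and held 61 codons, 20 of them for cysteine. They are spliced from GRCh37 by the GENCODE 44 annotation and given 5′ to 3′ on the plus strand, with capitals at each base that differs from MT2A at the same position.
MT2A: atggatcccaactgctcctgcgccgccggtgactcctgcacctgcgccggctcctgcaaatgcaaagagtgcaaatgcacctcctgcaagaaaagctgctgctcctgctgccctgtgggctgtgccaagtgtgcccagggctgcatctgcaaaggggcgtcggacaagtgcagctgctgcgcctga
MT1E: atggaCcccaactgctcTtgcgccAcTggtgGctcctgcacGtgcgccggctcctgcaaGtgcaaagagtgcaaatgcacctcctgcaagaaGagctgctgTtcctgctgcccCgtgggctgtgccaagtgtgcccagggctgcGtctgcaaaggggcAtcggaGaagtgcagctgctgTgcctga
MT1X: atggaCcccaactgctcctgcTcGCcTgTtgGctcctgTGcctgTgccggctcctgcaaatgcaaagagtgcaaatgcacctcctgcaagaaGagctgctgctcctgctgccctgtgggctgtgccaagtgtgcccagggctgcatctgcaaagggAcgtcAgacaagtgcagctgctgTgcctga
MT1F: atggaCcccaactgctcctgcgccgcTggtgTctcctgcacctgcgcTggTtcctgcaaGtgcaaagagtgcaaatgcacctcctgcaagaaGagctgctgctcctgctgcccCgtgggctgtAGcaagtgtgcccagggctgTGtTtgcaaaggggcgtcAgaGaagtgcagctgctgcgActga
MT1E and MT1X each differed from MT2A at 14 positions (92.5% identity), and MT1F differed at 16 (91.4%). Over the 6 pairs of these genes identity ran from 88.7% to 92.5%. The longest stretch without a difference was 63 bases, between MT2A and MT1X, which is longer than the 50-base reads. In MT1F and MT1X the longest common stretch was 53 bases and in MT1E and MT1F it was 50 bases.

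The whole mature transcripts differed more than the coding parts alone. Of the 352 words of 50 bases in the canonical MT2A transcript (401 bases), 313 occurred in no other gene, or 88.9%. The corresponding share was 94.7% for MT1E and 93.9% for MT1F. MT1X was the exception among the expressed members, with 174 of its 355 words to itself, or 49.0%. Of its words, 117 were shared with a transcript annotated over it on the same strand (ENSG00000259827, listed at no more than 0.19 TPM in any library), 47 with MT1G and 14 with MT2A. Among the weakly expressed members the share was 94.2% for MT1A, 85.4% for MT1M and 80.1% for MT1G. MT1L, a transcribed pseudogene, had no word of its own, since all 137 of its words also belong to an overlapping annotated gene. Reads from shared words are divided between genes by the RSEM model, so the MT1X level rests more on that model than those of MT2A, MT1E and MT1F. The words come from an annotation later than the authors', which may lack the gene over MT1L. The same can therefore not be said of MT1L.

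**Figure D1:**
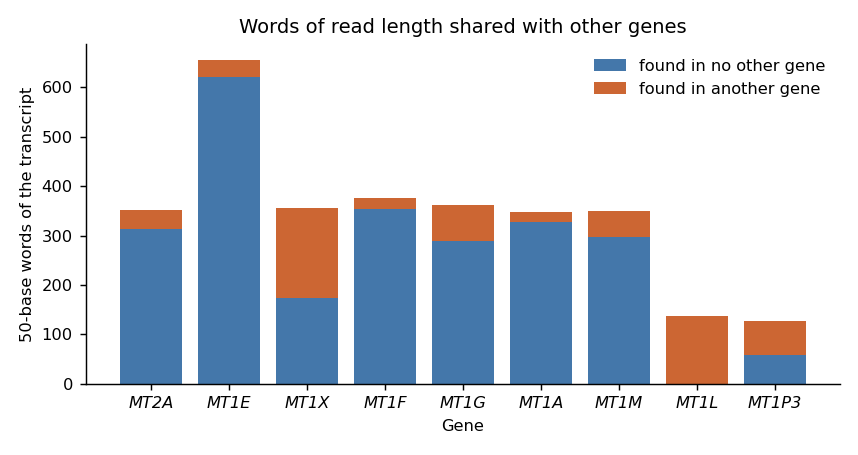
Number of 50-base words in 1 transcript of each of the 8 members and the pseudogene MT1P3, with words found in no other annotated gene (blue) stacked under words found in another gene (orange). The blue part makes up 88.9% of MT2A, 94.7% of MT1E and 49.0% of MT1X, and MT1L has none.

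Promoter sequences were at hand for 2 of the 8 members, MT2A and MT1X, and are shown because MTF1 acts through them. They are taken from RefSeq on GRCh38.p14, a build other than that of the expression table. Capitals mark the core of the metal response element, searched as TGCACNC or TGCGCNC on both strands, and the printed stretch is the 250 bases before the transcription start. No match overlapped another.
MT2A, chr16:56608334-56608583, plus strand: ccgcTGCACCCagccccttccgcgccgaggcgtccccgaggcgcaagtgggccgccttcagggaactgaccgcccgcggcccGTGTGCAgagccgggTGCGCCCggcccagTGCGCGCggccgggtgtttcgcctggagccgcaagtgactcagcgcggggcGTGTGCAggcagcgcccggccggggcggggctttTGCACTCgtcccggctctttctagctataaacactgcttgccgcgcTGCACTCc
MT1X, chr16:56682220-56682469, plus strand: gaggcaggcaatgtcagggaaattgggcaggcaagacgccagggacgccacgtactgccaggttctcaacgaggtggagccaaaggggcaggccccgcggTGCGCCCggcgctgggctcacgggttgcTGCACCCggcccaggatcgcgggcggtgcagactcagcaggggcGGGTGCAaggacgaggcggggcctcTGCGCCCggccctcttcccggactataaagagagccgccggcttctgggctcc
In the window from 250 bases before to 50 bases after the start, MT2A held 8 matches (5 on the plus strand and 3 on the minus strand), 7 of them in the stretch printed. Among 35116 promoters of the same length only 7, or 0.02%, held as many. These 7 include MT2A itself and MT1H, a metallothionein gene outside the 8 members, also with 8 matches. MT1X held 4 matches, a number reached by 211 promoters (0.6%). At least 1 match was found in 10377 promoters (29.6%). A match is a run of letters and does not show that MTF1 binds there.

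The expression table gives TPM, the number of transcripts of a gene scaled to a fixed total per library, which is scaled for transcript length and for the library total, so that levels can be set side by side between genes. The sequencing depth of single libraries cannot be read from it. The libraries of a group carry no number in the table and are named by the order of their columns. MT2A was the most abundant member, in every library. It was measured at 630.46, 376.27 and 481.83 TPM in the shCTL libraries, in column order, and at 719.79, 309.34 and 419.35 TPM in the shRor1 libraries. Both the highest and the lowest value thus came from shRor1 cells, and the shCTL values lay between them. By its shCTL mean of 496 ± 128 TPM (SD, n = 3), MT2A (ENSG00000125148.6, GRCh37 chr16:56642496-56643409, plus strand) ranked 265th of all genes.

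MT1E, the second member in level, followed at 299.84, 242.28 and 252.09 TPM in shCTL and 272.99, 204.89 and 234.21 TPM in shRor1. It is an MT1 form whose gene (ENSG00000169715.10) lies at chr16:56659387-56661024 on the plus strand, and by its shCTL mean of 265 ± 30.8 TPM it ranked 556th. The groups overlapped, and the lowest MT2A library exceeded the highest of MT1E by little. MT2A stood 1.51 to 2.64 times above MT1E within a library.

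MT1X (ENSG00000187193.8, chr16:56716382-56718108, plus strand) was expressed at a lower and far more even level. It measured 45.07, 43.05 and 40.85 TPM in shCTL and 40.75, 38.00 and 39.49 TPM in shRor1. The 3 shRor1 values all lay below the 3 shCTL values, with 40.75 and 40.85 TPM as the nearest pair. MT1F (ENSG00000198417.5, chr16:56691643-56694610, plus strand) was lower again, at 16.21, 10.49 and 11.88 TPM in shCTL and 21.81, 6.26 and 10.74 TPM in shRor1. As with MT2A, its highest and lowest libraries were both shRor1 libraries, and the groups overlapped. In each of the 6 libraries the order of the levels was MT2A, MT1E, MT1X and MT1F, with no overlap between neighbours in that order.

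The other 4 members were near 0. MT1A (ENSG00000205362.6, chr16:56672578-56673999, plus strand) had 0.38, 0.42 and 0.30 TPM in its shCTL libraries, then 0.41 TPM in the first shRor1 library and 0 in the others. MT1G (ENSG00000125144.9, chr16:56700642-56701977, minus strand), the only member on the minus strand, reached 1.35 TPM in the first shRor1 library, against 0.46, 0.43 and 0 TPM in shCTL and 0 in the other two shRor1 libraries. MT1M (ENSG00000205364.3, chr16:56666571-56667893) and the pseudogene MT1L (ENSG00000260549.1, chr16:56651475-56652592), both on the plus strand, were each listed at 0.07 TPM in the second shCTL library and at 0 elsewhere. The order of these 4 cannot be given, since their libraries overlap at 0. None of them reached 1 TPM in 3 libraries, the minimum for testing, so 4 of the 8 members were tested.

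**Figure D2:**
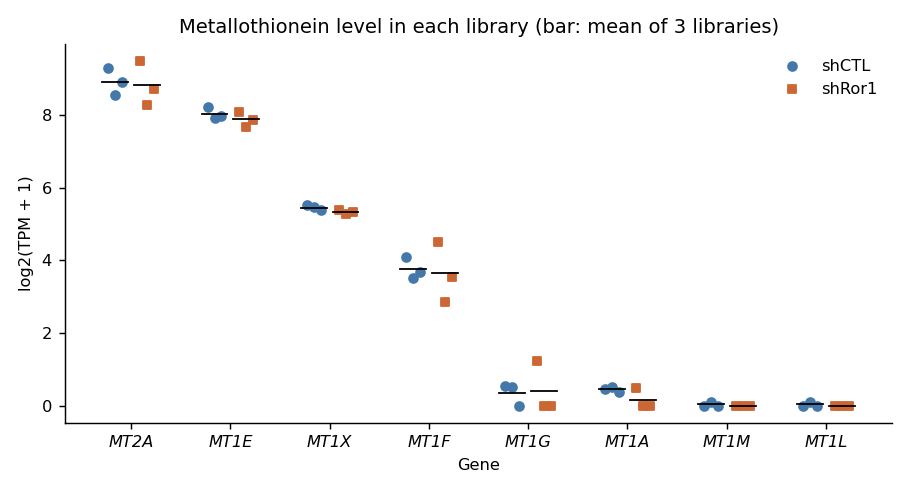
Level of the 8 members as log2(TPM + 1), with each library as a point (circles shCTL, squares shRor1) and a bar at the mean of the 3 libraries of a group. Every library puts the levels in the order MT2A, MT1E, MT1X and MT1F, the other 4 members lie near 0, and the groups overlap for MT2A, MT1E and MT1F.

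The comparison of shRor1 with shCTL asked whether lowering ROR1 changes expression in these cells. ROR1 itself, the target of the hairpin, measured 15.42, 13.49 and 20.56 TPM in shCTL and 9.34, 11.93 and 14.85 TPM in shRor1. Its mean was 16.5 ± 3.65 TPM in shCTL and 12.0 ± 2.76 TPM (SD, n = 3), or 73% as much, in shRor1, with overlapping groups (log2 fold change -0.43, SE 0.20, limma adjusted p = 0.984, exact two-sided permutation p = 0.2). With 3 libraries against 3, the exact test cannot go below 0.1. The lower ROR1 mRNA level that the labels imply did not pass the test, and each result below is a comparison of cells labelled shRor1 and shCTL. The paper shows the knockdown at the protein level by western blot, which mRNA levels do not measure.

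No metallothionein passed the test. At an adjusted p below 0.05 (limma on log2(TPM + 1), Benjamini-Hochberg), 0 of the 4 tested members were called, beside 0 of 16554 genes, a background of 0%. At an unadjusted p below 0.05 the members again numbered 0, against 472 genes, or 2.85%, of all those tested. The log2 fold change was below 0 for all 4 members, with a median of -0.13, although the mean TPM of MT1F was 100.6% of that in shCTL. Over all tested genes the median was 0.05 and 33.0% of them were lower. That background depended on the scaling, with 49.5% of all genes lower after quantile normalization and 55.4% after median ratio scaling, under both of which the 4 members were again below 0. Counts of higher and lower genes in the lists below are on the deposited scale. The 4 values come from the same 6 libraries and are not independent of each other.

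For MT2A the mean was 483 ± 212 TPM in shRor1 (SD, n = 3), which is 97.3% of that in shCTL. Its log2 fold change was -0.10 (SE 0.31), with a 95% interval from -0.81 to 0.62 and an adjusted p of 0.987 (limma). On the linear scale the interval runs from 0.569 to 1.54 times. The exact two-sided permutation p was 1. The direction turned without the first shCTL library (0.09) and without the second shRor1 library (0.18).

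MT1F was the least certain member. Its means were 12.9 ± 2.98 TPM in shCTL and 12.9 ± 8.0 TPM in shRor1, or 100.6%, so the mean TPM was not lower. Its log2 fold change of -0.13 (SE 0.38) had a 95% interval from -1.02 to 0.76 (limma adjusted p = 0.987, exact permutation p = 1). This too turned without the first shCTL library (0.04) and without the second shRor1 library (0.26).

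MT1E and MT1X gave narrower intervals. MT1E averaged 237 ± 34.2 TPM in shRor1, 89.7% of shCTL, with a log2 fold change of -0.16 (SE 0.12, 95% interval -0.45 to 0.13, limma adjusted p = 0.984, exact permutation p = 0.4). MT1X averaged 39.4 ± 1.38 TPM in shRor1 against 43.0 ± 2.11 TPM in shCTL, or 91.7%. Its log2 fold change was -0.12 (SE 0.07), the 95% interval ran from -0.30 to 0.05, and the adjusted p was 0.984 (limma). MT1X was the 1 member of the 4 with all shRor1 libraries below all shCTL libraries, an arrangement held by 1.3% of all tested genes, and its exact permutation p of 0.1 is the smallest that 3 against 3 allows. That gap depended on the scaling. After median ratio scaling MT1X stood at 46.75, 45.32 and 39.89 in shCTL and 40.83, 37.44 and 36.06 in shRor1, and the groups then overlapped.

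**Figure D3:**
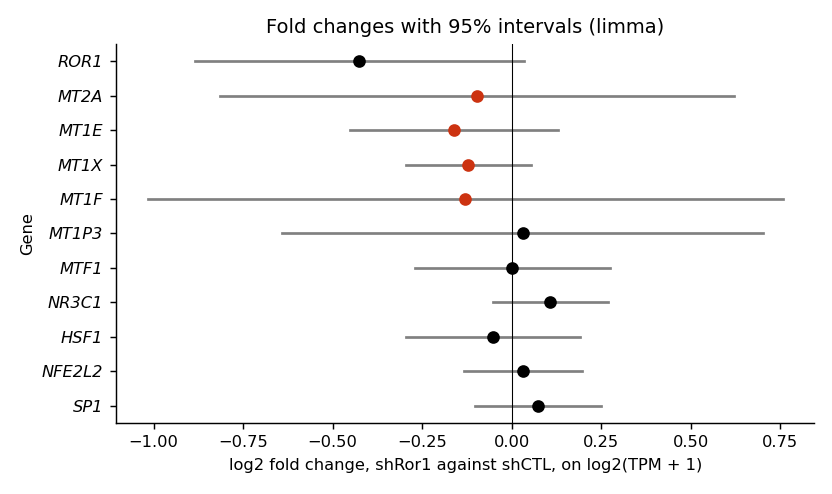
Log2 fold change of shRor1 against shCTL on the log2(TPM + 1) scale for the tested members (red) and, in black, ROR1, MT1P3 and 5 regulators, with 95% intervals from limma as horizontal lines. Every interval shown includes 0, and those of MT2A and MT1F are far wider than that of MT1X.

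The members differed in how evenly they were expressed between libraries. The residual SD of log2(TPM + 1), which is the spread left within groups, was 0.51 for MT2A and 0.62 for MT1F, beyond that of 96.5% and 98.0% of all tested genes. It was 0.19 for MT1E, at percentile 63.4, and 0.06 for MT1X, at percentile 6.5. The median over all tested genes was 0.151. Among the 1678 tested genes with at least 100 TPM in shCTL the median was 0.107. Of these, 16, MT2A itself included, had a residual SD at least as large as that of MT2A. The highest library exceeded the lowest 2.33 times for MT2A, 3.48 times for MT1F, 1.46 times for MT1E and 1.19 times for MT1X.

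**Figure D4:**
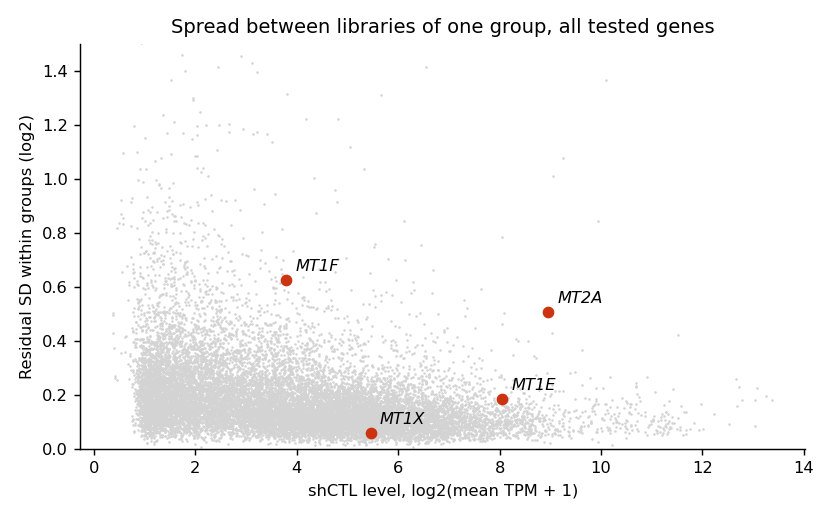
Residual SD of log2(TPM + 1) within groups (vertical) against the shCTL level, log2(mean TPM + 1), of each tested gene (horizontal), with all tested genes in grey and the 4 tested members in red. MT2A and MT1F stand above most genes of their level and MT1X among the lowest, and 40 genes beyond 1.5 are not drawn.

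MT2A, MT1F and MT1E had their libraries in the same order. In both groups the first library was highest, the third followed and the second was lowest. The largest contrast lay within shRor1, where MT2A stood 0.62 above its own mean in the first library and 0.60 below it in the second, on the log2 scale, and MT1F stood 0.81 above and 0.85 below. The same order in both groups was found for 669 of the 16554 tested genes, or 4.0%. Any single order shared by the groups, this or another, was found for 5934 genes (35.8%). The labels do not say that columns of the same place belong together. MT1X followed a different order in shCTL, where the third column was its lowest.

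The transcripts used here for MT2A, MT1F and MT1X are short (401, 425 and 404 bases), and length was therefore set beside this pattern. MT1E, which has the order, has a longer transcript (704 bases), while MT1X lacks the order in shCTL. The 185 tested protein-coding genes with canonical transcripts under 600 bases had median deviations of 0.066, -0.025 and 0.039 in the shCTL libraries. In the shRor1 libraries these were 0.037, -0.074 and -0.001. The first library was thus highest and the second lowest in both groups, the order of MT2A. The 11931 longer ones had medians of -0.028, -0.062 and 0.021, then -0.008, 0.003 and 0.074, without that order. The deviations of MT2A ran from -0.60 to 0.62, but MT2A is a single gene, whereas the medians are taken over many. Whether length has a part in the pattern was not tested.

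By the root mean square difference from MT2A over the 6 libraries, on centred log2 values, MT1F was the nearest family member (0.141), followed by MT1P3 (0.188), MT1E (0.272) and MT1X (0.383). Of the genes outside the family with at least 5 TPM on average, the nearest were the ribosomal protein pseudogene RPL13AP20 (0.128), VEPH1 (0.151), FERMT3 (0.154), CCDC80 (0.154) and the small nucleolar RNA SNORA71C (0.159). FERMT3 encodes kindlin-3, an integrin activator of blood cells, and CCDC80 a secreted matrix protein. CCDC80 measured 49.23, 31.69 and 35.78 TPM in shCTL and 56.72, 31.79 and 33.62 TPM in shRor1, so that its first library was the highest in both groups. The 5 genes were selected for this likeness among all tested genes, and nothing is shown by it about common control.

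As reads may be divided between near-identical members, the levels were also summed. The 8 members together took 992.42, 673.08 and 786.95 TPM in shCTL and 1057.1, 558.49 and 703.79 TPM in shRor1. The means were 817 ± 162 TPM and 773 ± 256 TPM (SD, n = 3), and shRor1 stood at 94.6% of shCTL, a difference of -44.4 TPM that turned to 43.1 TPM without the first shCTL library and to 63.0 TPM without the second shRor1 library. MT2A made up 55.39% to 68.09% of the sum, and the 4 tested members at least 99.83% of it. Without MT2A the sum was 321 ± 35.5 TPM in shCTL and 290 ± 44.4 TPM in shRor1, or 90.4%. In each of these sums the groups overlapped.

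The proportion of MT2A to the other members was not fixed. MT2A exceeded MT1X 13.99, 8.74 and 11.80 times in the shCTL libraries and 17.66, 8.14 and 10.62 times in the shRor1 libraries. The ratio was higher in the libraries where MT2A itself was high. MT1E exceeded MT1X by a steadier 5.39 to 6.70 times. MT2A exceeded MT1F 33.0 to 49.4 times, and this ratio was lowest in the first shRor1 library and highest in the second.

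Of 13 further metallothionein genes and pseudogenes, 12 were in the table and only MT1P3 was expressed enough to be tested. MT1P3 (ENSG00000229230.2) is a processed pseudogene on chromosome 20, at chr20:33805812-33805988 on the plus strand, opposite to MMP24OS. It measured 51.16, 23.56 and 33.74 TPM in shCTL and 48.08, 28.87 and 31.37 TPM in shRor1, in the same order of libraries as MT2A. Its annotated transcript is 177 bases long and 58 of its 128 words (45.3%) were its own, while 40 were shared with MT1JP, 30 with MT1E and 14 with MT1F. Its log2 fold change was 0.03 (SE 0.29, limma adjusted p = 0.994), and its sign turned after median ratio scaling (-0.05) and after quantile normalization (-0.01). MT1JP, a transcribed pseudogene of the cluster under the minimum for testing, had 0.42, 0.53 and 0.39 TPM with shCTL and 0.57, 0.57 and 0.59 TPM with shRor1. The groups did not overlap on this scale, an arrangement held by 6.48% of all tested genes, but did after median ratio scaling. MT1P1 lay between 0.25 and 1.28 TPM, MT2P1 and MT1XP1 reached 1.21 and 0.62 TPM, and MT1B reached 0.15 TPM. The brain form MT3 and the MT1 gene MT1H were above 0 in the second shCTL library only, at 0.02 and 0.08 TPM. The epithelial form MT4, MT1HL1, MT1DP and MT1CP were listed at 0 in all 6 libraries.

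The regulators of metallothionein transcription were all expressed, and none passed the test. MTF1, the zinc-sensing activator, averaged 6.49 ± 0.518 TPM in shCTL and 6.50 ± 0.593 TPM in shRor1, with values from 5.94 to 7.17 TPM over the 6 libraries. Its log2 fold change was 0.00 (SE 0.12). NR3C1, the glucocorticoid receptor, measured 37.40, 37.28 and 38.88 TPM in shCTL and 40.08, 41.04 and 41.49 TPM in shRor1. The groups did not overlap on the deposited scale, an arrangement in this direction held by 6.48% of all tested genes. They overlapped after median ratio scaling and did not after quantile normalization. The log2 fold change was 0.11 (SE 0.07, limma adjusted p = 0.984). HSF1, the heat shock activator, stood at 111 ± 7.73 TPM in shCTL and 108 ± 13.8 TPM in shRor1. NFE2L2, which drives the antioxidant response, stood at 93.1 ± 3.60 and 95.2 ± 4.60 TPM, and the general activator SP1 at 32.9 ± 0.968 and 34.7 ± 1.64 TPM.

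Zinc transporters did not pass the test either. Of the SLC30 genes, listed here as zinc exporters, 7 of 10 were tested, with 5 higher and 2 lower in shRor1. Their median log2 fold change was 0.07, with no call at either threshold. SLC30A9 averaged 34.9 ± 2.41 TPM in shCTL and 41.2 ± 7.78 TPM in shRor1, and SLC30A5, SLC30A6 and SLC30A7 averaged between 28.7 and 37.8 TPM in the groups. SLC30A1, a target of MTF1 at the plasma membrane, was looked at after its values were seen. It measured 10.55, 13.33 and 10.91 TPM in shCTL and 10.04, 15.50 and 11.85 TPM in shRor1. The groups overlapped (log2 fold change 0.08, SE 0.17, limma adjusted p = 0.986). Of the SLC39 importers 11 of 14 were tested, with 4 higher and 7 lower and a median of -0.01. By the mean over the 6 libraries the most abundant were SLC39A7, which releases zinc from the endoplasmic reticulum and Golgi (157 ± 12.1 and 155 ± 9.54 TPM), SLC39A1 (113 ± 5.05 and 112 ± 6.02 TPM), SLC39A14 and SLC39A6.

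Copper-handling genes gave a like picture, with 11 of 12 tested, 5 higher, 6 lower, a median log2 fold change of -0.01 and no call. SOD1, the copper and zinc superoxide dismutase, averaged 393 ± 28.1 TPM in shCTL and 386 ± 8.29 TPM in shRor1. The copper chaperone ATOX1 averaged 146 ± 18.7 and 139 ± 20.4 TPM, and COX17 and COX11, which deliver copper to cytochrome oxidase, averaged 73.2 ± 8.22 and 64.0 ± 4.15 TPM in shCTL and 71.7 ± 5.65 and 63.5 ± 0.910 TPM in shRor1.

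In the list of metal and oxidant stress genes all 12 were tested, 5 were higher and 7 lower, the median was -0.03, and again there was no call. TXNRD1, thioredoxin reductase, measured 676.01, 499.32 and 389.55 TPM in shCTL and 653.58, 421.53 and 353.84 TPM in shRor1. NQO1, a quinone reductase driven by NFE2L2, measured 586.05, 474.04 and 402.63 TPM and then 568.86, 450.37 and 381.73 TPM. In both genes the first library was the highest of each group, as in MT2A. The second library lay between the others, whereas in MT2A the second library was lowest. A link of these genes with MT2A was not tested. HSPA1B and HSPH1, heat shock proteins, averaged 178 ± 14.5 and 159 ± 22.3 TPM in shCTL and 189 ± 32.8 and 166 ± 31.6 TPM in shRor1. HMOX1, heme oxygenase and a classical metal-responsive gene, was named after its values were seen (5.67 ± 0.391 and 4.66 ± 0.676 TPM, log2 fold change -0.24, SE 0.13, limma adjusted p = 0.984). It was the 1 gene of the list with all shRor1 libraries below all shCTL libraries, an arrangement held by 1.3% of all tested genes. That gap held after median ratio scaling and no longer after quantile normalization. Over the 8 lists of related genes, 2 of 63 tested genes lay wholly below in shRor1. Another 3 lay wholly above, an arrangement held by 6.48% of all tested genes.

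Of 10 glucocorticoid-responsive genes 9 were tested, with 6 higher and 3 lower and a median log2 fold change of 0.11. ERRFI1, an inhibitor of EGFR, averaged 98.7 ± 5.08 TPM in shCTL and 122 ± 17.4 TPM in shRor1. It was the 1 gene over the 8 lists of related genes with an unadjusted p below 0.05 (log2 fold change 0.30, SE 0.11, limma adjusted p = 0.984), out of 63 tested genes or 1.59%, against 2.85% of all tested genes. Well known targets of the receptor lay on both sides. FKBP5 averaged 48.3 ± 2.20 and 45.4 ± 3.22 TPM and DUSP1 29.2 ± 4.45 and 27.7 ± 7.38 TPM, whereas NFKBIA averaged 48.7 ± 4.56 and 55.9 ± 1.33 TPM.

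Genes next to the metallothionein cluster were examined as a check of the chromosomal region. Of 10 neighbours 7 were tested, with 2 higher and 5 lower, a median log2 fold change of -0.03 and no call. NUDT21, a cleavage factor subunit and the most abundant, measured 124.01, 121.46 and 124.03 TPM in shCTL and 120.91, 118.91 and 115.22 TPM in shRor1 (log2 fold change -0.06, SE 0.06, limma adjusted p = 0.984). Its groups did not overlap, an arrangement in this direction held by 1.3% of all tested genes, except after median ratio scaling. NUP93, a nuclear pore protein, and OGFOD1 lay between 41.64 and 62.51 TPM. None of these 3 neighbours varied between libraries as widely as MT2A. The less abundant neighbour BBS2, named after its values were seen, was less even. It ranged from 15.08 to 29.8 TPM, or 1.98 times, with a residual SD of 0.37 at percentile 91.9.

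The cell type named by the labels was checked on marker lists. All 10 mesenchymal markers were expressed, led by VIM at 2565 ± 149 TPM in shCTL and 2692 ± 204 TPM in shRor1, and their summed level ran from 4420 to 4579 TPM in shCTL and from 4506 to 4849 TPM in shRor1. Of 13 luminal markers 11 were tested, and their sum, mostly KRT8 and KRT18, ran from 1180 to 1347 TPM and from 1100 to 1347 TPM. The luminal hormone receptors were near 0, with ESR1 between 0.10 and 0.21 TPM and PGR at no more than 0.01 TPM. The 11 tested luminal markers were expressed, among them KRT19 at 84.77 to 141.5 TPM and XBP1 at 58.07 to 71.7 TPM. GATA3 (3.83 to 4.69 TPM) and FOXA1 (3.72 to 5.45 TPM) were low but present in all 6 libraries. In each library between 16036 and 17033 genes reached 1 TPM.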

How the data were processed

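Total RNA was sequenced as single 50-base reads on a strand-specific kit (the sample labels say polyA RNA). Per the labels and the study's methods, the authors used CASAVA 1.8.2, FastQC 0.10.0, STAR on GRCh37, RSEM 1.2.5 and edgeR. The table the authors deposited is called expected counts but holds TPM: its columns sum to between 999999 and 1000001. No column was left unused. Symbols matched 55022 of 57445 identifiers (GENCODE 44 on GRCh37, later than the authors' annotation). Coding sequences and words of 50 bases were read from that annotation, using for MT1E the transcript with 61 codons.

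The 16554 genes that reached 1 TPM in 3 or more libraries were tested on log2(TPM + 1) with limma 3.58.1 (R 4.3.3, mean-variance trend, Benjamini-Hochberg, threshold 0.05), after a check on simulated data. Fold changes on this scale understate the change of low genes. Single genes also had an exact two-sided permutation test. Alternatives covered the filter, pseudocount, scaling, model options and each library left out.

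The members and lists were chosen with earlier results of these data known. SLC30A1, HMOX1 and BBS2 were named outside the rule below, after their values were seen. The luminal markers ESR1, PGR, GATA3 and FOXA1 were also named outside it. Named genes are the members, other metallothioneins, regulators, ROR1, up to 4 most abundant genes per remaining list, any list gene with an unadjusted p below 0.05, and the 5 genes most like MT2A. A gene named by this rule is not reported here.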

Additional observations from a re-analysis of the deposited data

How the results depend on the processing

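The members remained without a call at an adjusted p below 0.05 under all 14 alternatives, as did the genes of the lists. MT1E stayed below 0 under 15 alternatives, 1 of which summed the MT1 members (log2 fold change -0.27 to -0.06, adjusted p 0.484 to 1), and so did MT1X under 14 (-0.20 to -0.09, adjusted p 0.546 to 1) and ROR1 under 14 (-0.58 to -0.26, adjusted p 0.62 to 1). MT2A ran from -0.43 to 0.18 with single libraries left out (0.09 without shCTL library 1 and 0.18 without shRor1 library 2), and MT1F from -0.56 to 0.26 (0.04 and 0.26). MT1P3 came out at -0.01 after quantile normalization, at -0.047 after median ratio scaling and at -0.083 with array weights, and from -0.23 to 0.31 with single libraries left out (-0.23 without shCTL library 2 and -0.19 without shRor1 library 1). The cause of these turns was not tested. The difference in summed TPM of the members was -44.4 and ran from -186.3 to 63.0 under 8 alternatives. Its sign turned without shCTL library 1 (43.1) and without shRor1 library 2 (63.0), and it was not tested.

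Over all genes, 0 were called, and 0 to 1 with single libraries left out, the call being RPL39P3 without shRor1 library 3. An unadjusted p below 0.05 was reached by 472 genes, by 1363 without a filter, by 227 at a mean of at least 5 TPM, by 859 with array weights, and by 275 to 1692 with single libraries left out (281 without shCTL library 1, 275 without shCTL library 2 and 1692 without shRor1 library 1). Of the 472, 382 were higher in shRor1, against 200 of 371 after quantile normalization and 200 of 398 after median ratio scaling. No paired analysis was possible because the headers of the 6 libraries hold no replicate number. TPM keeps no depth, so the counting error of the members near 0 is unknown.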
